A study of Mus musculus with 6 samples.

Results

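The genes of fatty acid uptake and oxidation and their PPAR, ERR and PGC-1 regulators were examined in HL-1 cells, a mouse cell line derived from atrial cardiomyocytes. A list of 49 genes was matched by symbol to the deposited table of normalized counts, which holds 21269 genes, and 47 of the 49 were found (Acot1 and Cpt1b were not analysed here). Cells were transfected with 50 nM of a control LNA-gapmer (LNA Control, 3 libraries) or of an LNA-gapmer against the long noncoding RNA Malat1 (LNA Malat1, 3 libraries), seeded 24 hours earlier and collected 48 hours later. An LNA-gapmer is a short DNA strand with locked nucleic acid ends that directs RNase H to the RNA it pairs with. All cells of both groups grew in Claycomb medium with 10% serum and 0.1 mM norepinephrine, and the labels do not say whether the 3 libraries of a group came from separate cultures, so the p-values measure the spread between these libraries, which may be technical.

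Cardiomyocytes draw most of their energy from long-chain fatty acids. Fatty acids enter the cell with the help of CD36 and lipoprotein lipase, are bound by FABPs, are joined to coenzyme A by the ACSL enzymes, cross into mitochondria as carnitine esters through CPT1, the carrier SLC25A20 and CPT2, and are then shortened by repeated cycles of dehydrogenation, hydration, a second dehydrogenation and thiolysis. The receptors PPARα, PPARδ and PPARγ, each paired with RXR, and the estrogen-related receptors ERRα, ERRβ and ERRγ bind near many of these genes, and PGC-1α and PGC-1β are their coactivators. This program is known for its rise after birth as cardiomyocytes mature.

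The targeted RNA fell, and Malat1 had normalized counts of 5051, 5197 and 4369 with LNA Control and of 2833, 2792 and 2732 with LNA Malat1 in the order of the replicate numbers, which holds for all values below (log2 change -0.80 with SE 0.07, adjusted p = 7.5e-06 by limma). The sum of normalized counts of a library ranged from 4831007 to 4921406 with LNA Control and from 4758777 to 4762957 with LNA Malat1, and the reads on genes recovered from the rounding were between 4512626 and 5593499 per library. LNA Malat1 replicates 1 and 3 differed by less than the sampling noise over 14522 genes (chi-square 0.95 per gene, and 1.01 for replicates 1 and 2). As a caution, replicates 1 and 3 were counted as 1 sample in each mean ± SD, although they differed by more than the sampling noise in the 1754 genes with the most reads (1.11 per gene). The cardiomyocyte markers Tnnt2, Actc1, Ryr2 and Pln were at least 409 in every library, whereas the atrial myosin genes Myl7 and Myl4 lay between 18 and 49 and Myh6 between 0 and 7. The Z-disc gene Actn2 rose from 153, 105 and 144 to 235, 198 and 221 (log2 change 0.71, adjusted p = 0.0011 by limma), Tnnt2 rose by 0.15 and Pln fell by 0.25 on the log2 scale (adjusted p = 0.034 and 0.0037 by limma). Summed, the cardiomyocyte markers (8 of 10 measured) ranged from 4231 to 4593 with LNA Control and from 4182 to 4302 with LNA Malat1. The fibroblast collagens Col1a1 and Col3a1 were at least 1794 in every library and Col1a2 at most 1, and the summed fibroblast markers (4 of 6 measured) were lower in LNA Malat1 (3845 to 4017) than in LNA Control (4329 to 5079). The leukocyte markers Cd68 and Csf1r (2 of 6 measured) summed to between 32 and 36 in LNA Control and between 54 and 81 in LNA Malat1, and the adipocyte markers (3 of 6 measured) to at most 9 in any library. The endothelial markers (2 of 6 measured) summed to between 4 and 13 with LNA Control and between 11 and 19 with LNA Malat1. Whether these markers have a part in the results below was not tested.

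Of the 47 genes, 42 had a mean normalized count of at least 5 and were tested with limma, and Pparg, Esrrb, Angptl4, Plin5 and Ucp3 lay under it. The log2 fold change was negative in 32 of the 42 and positive in 10, and mostly small. With limma p-values adjusted over all 15650 genes tested and a threshold of 0.05, 16 of the 42 fell and 3 rose, against 14.0% lower and 14.3% higher among all genes. The tested genes with a mean of at least 50, the range that holds 40 of the 42, are the closer background, and 19.7% of those were lower and 12.2% higher. With a fold change of at least 1.5 as well, only Ppara was called (lower), against 2.92% of all genes called lower and 8.0% called higher, and 3.33% and 3.05% of those with a mean of at least 50. The median log2 fold change of the 42 genes was -0.18, and it was 0.02 over all genes tested and -0.03 over those with a mean of at least 50. All 3 LNA Malat1 libraries were under the lowest LNA Control library in 21 of the 42 genes and over the highest in 4, against 20.8% and 20.5% of all genes tested and 28.5% and 17.2% of those with a mean of at least 50. Of the 19 genes past the adjusted p, 9 stayed past it with each library left out in turn, namely Ppara, Ppard, Esrra, Ppargc1a, Acsl4, Acot2, Echs1, Acaa2 and Eci2. These 9 were also past it under every scaling, pseudocount and filter tried. With LNA Malat1 replicates 1 and 3 as 1 sample, several of the 19 were no longer past it. The limma adjusted p was then 0.087 for Lpl, 0.056 for Acsl3, 0.078 for Cpt1a and 0.068 for Acads. It was 0.065 for Decr1, 0.061 for Etfdh and 0.070 for Eci1. Quantile normalization, in which every library is given the same distribution of values, gave 9 lower and 5 higher, and library totals set equal gave 12 lower and 5 higher. The share of all genes at the adjusted p alone was not computed for these settings, so these counts have no background. Scaling moved the calls of all genes at 1.5-fold, from 457 lower and 1252 higher to 718 and 748 under quantile normalization. With library totals set equal they were 393 lower and 1338 higher. In bulk RNA, fewer cells with a transcript and less of it per cell cannot be told apart.

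**Figure D1:**
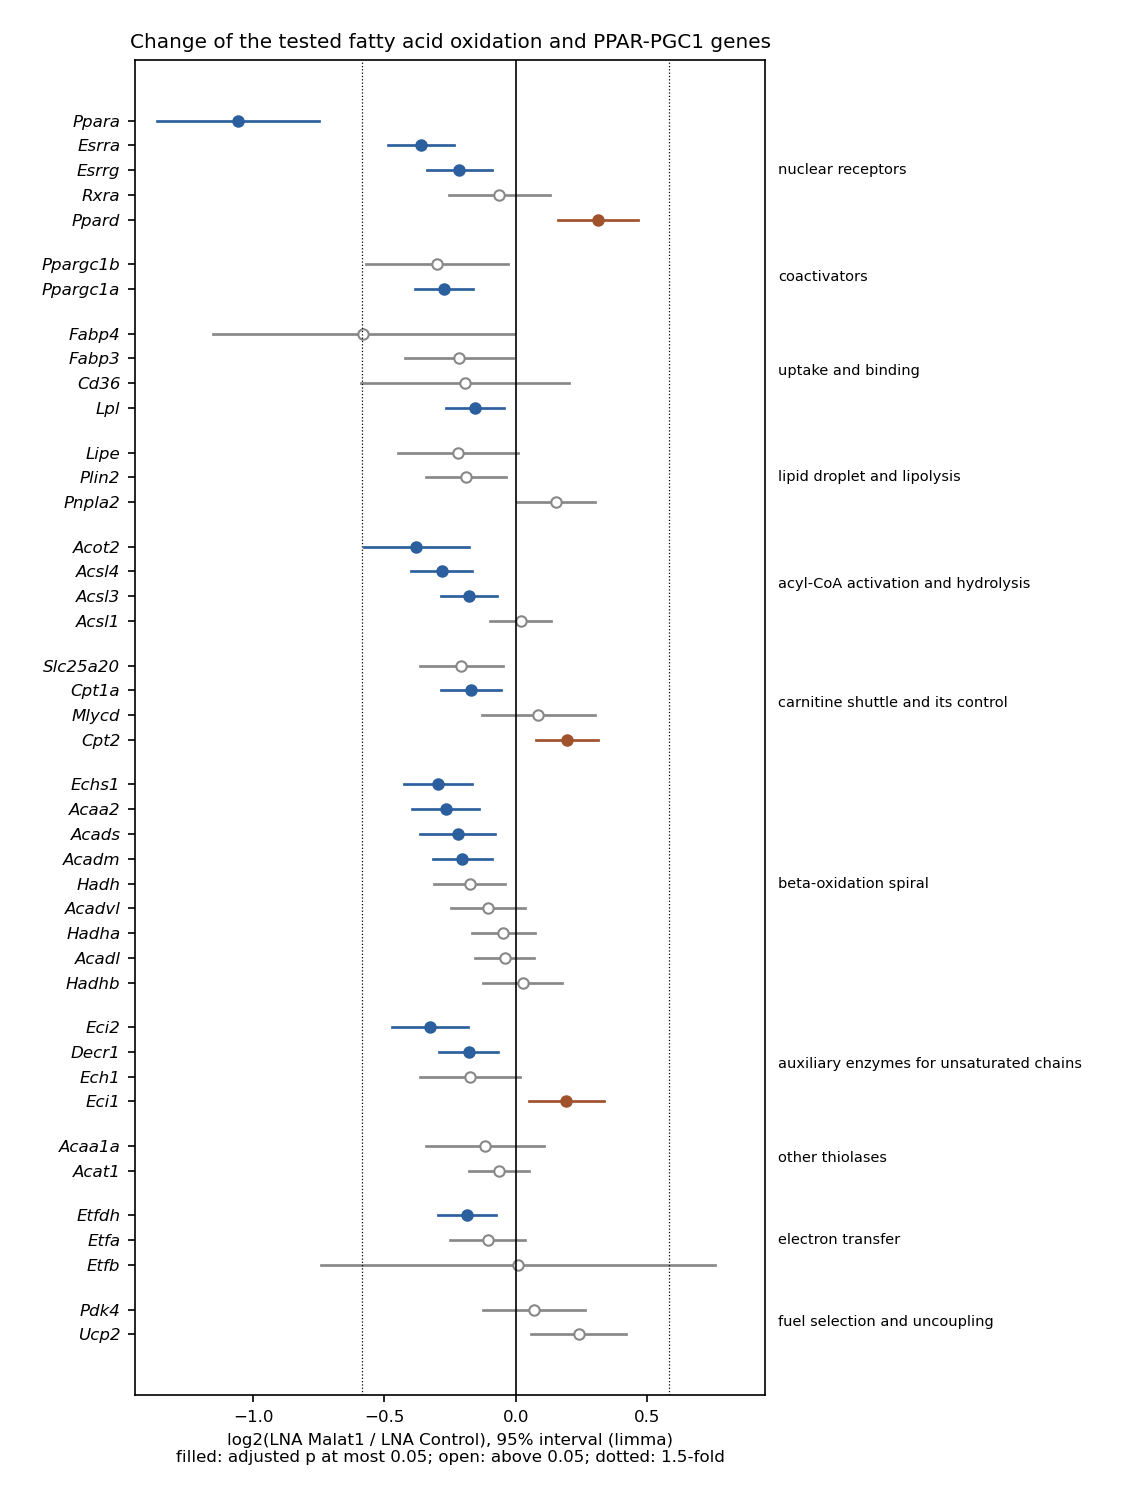
Log2 fold change of LNA Malat1 over LNA Control (horizontal axis) with its limma 95% interval for the 42 tested genes, grouped by role. Filled points have an adjusted p of at most 0.05, and the dotted lines mark 1.5-fold. Of the 19 filled points, 16 lie left of 0, and only that of Ppara lies beyond a dotted line.

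The largest change was in the receptor genes. Ppara (chromosome 15, mm10 positions 85734983 to 85802819), the gene of the PPAR that drives fatty acid oxidation genes in heart and liver, was counted at 101, 91 and 83 with LNA Control and 40, 51 and 40 with LNA Malat1. The groups did not overlap, and each LNA Malat1 library held fewer counts than the lowest LNA Control library by a wide margin. The mean was 91.7 ± 9.0 (SD, n = 3) with LNA Control and 45.5 ± 7.8 (SD, n = 2) with LNA Malat1. On the fitted scale Ppara fell to 48.0% of LNA Control (log2 change -1.06 with SE 0.14, adjusted p = 0.00016 by limma). With each library left out in turn its highest adjusted p was 0.0023 (limma). When a 1.5-fold change was itself tested, Ppara was no longer called.

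Ppard (chromosome 17, positions 28232700 to 28301474), which encodes the broadly expressed PPARδ, moved the other way, with 420, 386 and 388 with LNA Control and 532, 446 and 510 with LNA Malat1. Every LNA Malat1 library was above every LNA Control library, though replicate 2 by little, and the log2 change was 0.31 with SE 0.07 (adjusted p = 0.0052 by limma). Pparg, the gene of the adipocyte PPAR, was near 0 in all libraries, with 5, 1 and 2 with LNA Control and 1, 3 and 4 with LNA Malat1. Rxra, the gene of the shared partner of the PPARs, was 131, 117 and 119 with LNA Control and 119, 116 and 116 with LNA Malat1. Those groups overlapped, and the 95% interval of the Rxra log2 fold change ran from -0.25 to 0.13 (limma adjusted p = 0.64).

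Because the PPAR genes moved in opposite directions, their ratio within a library was also computed, a comparison chosen after their values were seen. Ppard counts were 4.16, 4.24 and 4.67 times those of Ppara in the LNA Control libraries and 13.3, 8.75 and 12.8 times in the LNA Malat1 libraries. On the log2 scale the ratio rose by 1.37, and the exact permutation p was 0.1, the smallest that 3 against 3 libraries allow (two-sided). No other p was possible, because every LNA Malat1 library was above LNA Control in Ppard and below it in Ppara. Under quantile normalization the difference was 1.55.

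Both ERR genes that were measurably expressed fell. Esrra (chromosome 19, positions 6910977 to 6921840), which encodes ERRα, an activator of mitochondrial enzyme genes, had 367, 383 and 370 with LNA Control and 287, 282 and 304 with LNA Malat1 (log2 change -0.36 with SE 0.06, adjusted p = 0.00065 by limma). Its groups were tight and well apart. Esrrg (chromosome 1, positions 187608791 to 188214885), which encodes ERRγ, had 562, 566 and 578 against 458, 496 and 518 (log2 change -0.21 with SE 0.06, adjusted p = 0.014 by limma), and without LNA Malat1 replicate 1 its adjusted p was 0.086 (limma). Esrrb was between 0 and 2 in every library.

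Of the coactivators, Ppargc1a (chromosome 5, positions 51454250 to 51567726), which encodes PGC-1α, was among the most abundant genes of the list and fell from 1470, 1553 and 1553 with LNA Control to 1243, 1259 and 1288 with LNA Malat1 (log2 change -0.27 with SE 0.05, adjusted p = 0.0017 by limma). The fall to 82.9% was small, and the LNA Malat1 libraries were close to one another. Ppargc1b, the gene of PGC-1β, had 152, 129 and 137 against 126, 91 and 125, with a log2 fold change of similar size and a wider spread (-0.30 with SE 0.12, adjusted p = 0.092 by limma). The ratio of Ppargc1b to Ppargc1a within a library differed by -0.03 on the log2 scale, less than the spread between libraries (exact permutation p = 0.9).

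**Figure D2:**
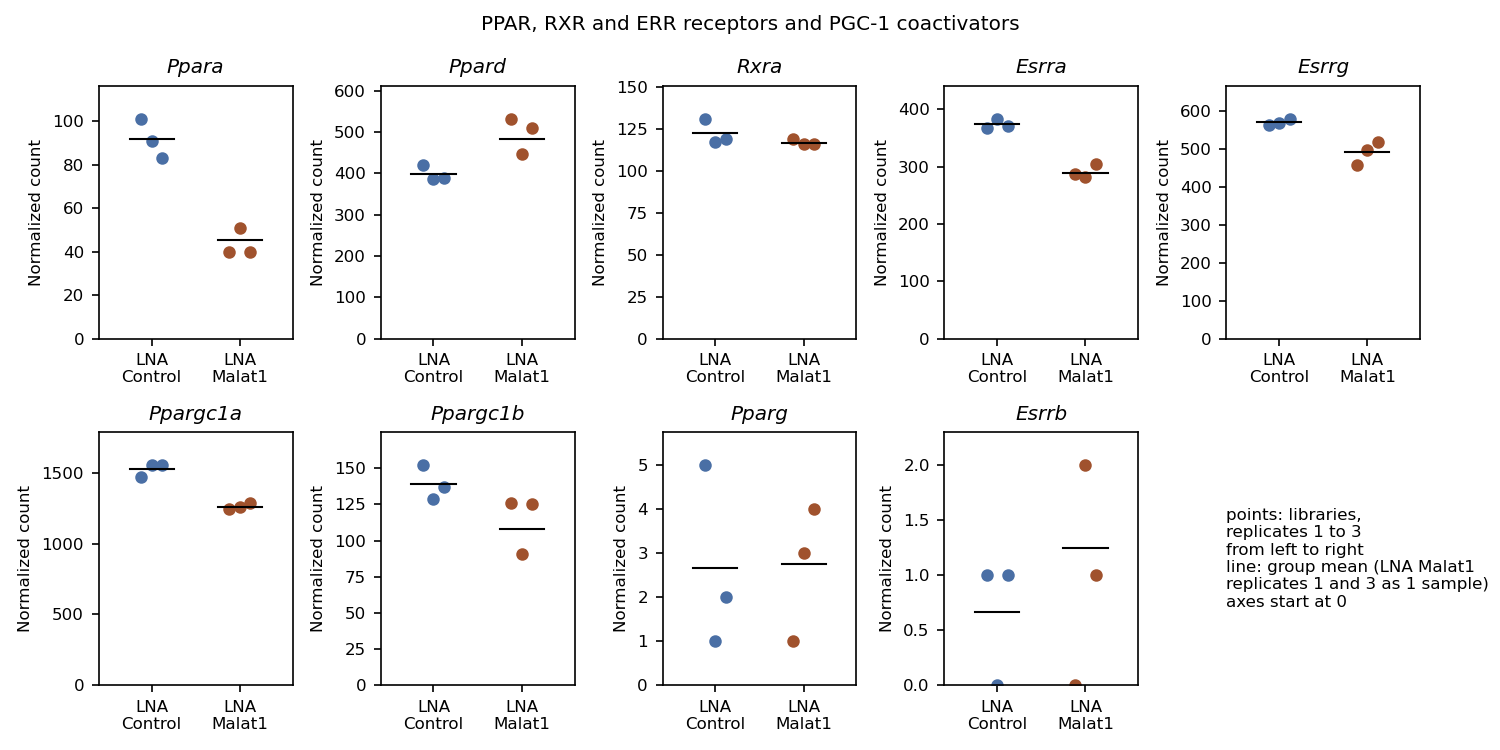
Normalized counts (vertical axes, from 0) of the receptor and coactivator genes in each of the 6 libraries, with the group mean as a line (LNA Malat1 replicates 1 and 3 as 1 sample). The LNA Malat1 libraries lie below LNA Control in Ppara, Esrra, Esrrg, Ppargc1a and Ppargc1b and above it in Ppard, and Pparg and Esrrb are at 5 or less throughout.

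Short stretches of 4 start regions are shown because they hold a motif of a factor tied to PGC-1 whose own gene was measured. The windows ran from 250 bases before to 50 bases after the start of a gene (RefSeq, GRCm38.p6, the build of mm10) and were available for 41 of the 49 genes. The motifs searched on both strands were the PPAR-RXR direct repeat (AGGTCA, any base, AGGTCA), the ERR element TCAAGGTCA, the NRF1 palindrome (GCGCA followed by its reverse complement) and the GABP element CCGGAAGT. The ERR element holds the AGGTCA of the direct repeat. Capitals mark the match and lower case the bases around it, 5′ to 3′ on the strand of the gene. The match in Ppara starts 31 bases before the start (chr15:85735735-85735764, plus strand), that in Etfdh 128 bases before it (chr3:79628876-79628905, minus strand), that in Cpt2 13 bases before it (chr4:107923584-107923613, minus strand) and that in Slc25a20 79 bases before it (chr9:108662046-108662075, plus strand). These RefSeq starts lie inside the span that the table gives for each gene, so the matches in Ppara, Etfdh and Cpt2 are within these spans and that in Slc25a20 is before its span. The Etfdh and Cpt2 stretches overlap an annotated exon of their own gene.
Ppara, NRF1 element: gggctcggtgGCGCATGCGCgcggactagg
Etfdh, NRF1 element: tgcttctaggGCGCATGCGCacacgcgaga
Cpt2, GABP element: cctatcggtgcCCGGAAGTgcccctgtggg
Slc25a20, GABP element: gaggagggcagCCGGAAGTagacttcaggg

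The NRF1 element was in 2 of the 41 genes and in 1.07% of the 27025 genes with a window, and the GABP element in 2 of the 41 and in 4.31%. The direct repeat and the ERR element were in 0 of the 41 and in 0.0481% and 0.466% of all genes, which says only that these letters are not in these short windows. A match is a description of the sequence and not a bound site.

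Among the genes of uptake and binding, only Lpl passed the adjusted p. Lpl (chromosome 8, positions 68880491 to 68907448), the gene of the lipase that frees fatty acids from lipoproteins, fell from 1140, 1126 and 1078 with LNA Control to 1027, 982 and 994 with LNA Malat1 (log2 change -0.15 with SE 0.05, adjusted p = 0.036 by limma). It passed in 1 of the 6 fits that left out a library, that without LNA Control replicate 3, and had an adjusted p of up to 0.13 in the others (limma). Fabp3, the gene of the heart fatty acid binding protein, had 114, 122 and 115 against 105, 104 and 93, which did not overlap (log2 change -0.22, adjusted p = 0.11 by limma).

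The other uptake genes were scarce and variable. Cd36, the gene of a fatty acid translocase, had 65, 45 and 79 with LNA Control and 55, 55 and 51 with LNA Malat1, and the groups overlapped (limma adjusted p = 0.47). Fabp4, the gene of the adipocyte binding protein, had 18, 33 and 30 against 19, 14 and 19 (log2 change -0.58 with SE 0.27, adjusted p = 0.12 by limma). LNA Control replicate 1 lay with the LNA Malat1 libraries, and without it the log2 fold change of Fabp4 was -0.84 (limma adjusted p = 0.018). Angptl4, the gene of a secreted inhibitor of lipoprotein lipase and a classic PPAR target, had 4, 0 and 0 against 5, 8 and 4 and was not tested.

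No lipid droplet gene of the list passed the adjusted p. Pnpla2, the gene of adipose triglyceride lipase, had 453, 415 and 378 with LNA Control and 479, 443 and 462 with LNA Malat1 (log2 change 0.15 with SE 0.07, adjusted p = 0.11 by limma). Plin2, the gene of a coat protein of lipid droplets, had 381, 420 and 407 against 360, 380 and 320, with all LNA Malat1 libraries lower and the nearest pair 1 count apart (log2 change -0.19, adjusted p = 0.060 by limma). Lipe, the gene of hormone-sensitive lipase, had 133, 135 and 133 against 105, 135 and 106, so that LNA Malat1 replicate 2 was at the level of LNA Control. Of the exonic bases of Lipe, 15.6% lie under a gene on the opposite strand. Plin5, whose protein ties droplets to mitochondria, lay between 0 and 7 in all libraries.

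The enzymes that activate fatty acids differed from one another. Acsl4 (chromosome X, positions 142317993 to 142390535), whose enzyme prefers arachidonate, fell from 957, 1025 and 1057 with LNA Control to 822, 850 and 826 with LNA Malat1 (log2 change -0.28 with SE 0.05, adjusted p = 0.0019 by limma). Acsl3, the gene of an enzyme of lipid droplets and the endoplasmic reticulum, fell from 650, 684 and 660 to 580, 587 and 596 (log2 change -0.18 with SE 0.05, adjusted p = 0.018 by limma), and it passed in 2 of the 6 fits that left out a library. Acsl1, the main isoform of heart, had 395, 418 and 418 against 416, 410 and 421, with overlapping groups and a 95% interval of the log2 fold change from -0.10 to 0.14.

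The log2 ratio of Acsl1 to Acsl4 counts within a library was -1.27, -1.29 and -1.34 with LNA Control and -0.98, -1.05 and -0.97 with LNA Malat1, higher by 0.30 in LNA Malat1 without overlap (exact permutation p = 0.1, the smallest possible). Acot2 (chromosome 12, positions 83987861 to 83993873), the gene of a mitochondrial thioesterase that splits acyl-CoA again, fell from 150, 132 and 148 to 112, 115 and 103 (log2 change -0.38 with SE 0.09, adjusted p = 0.0085 by limma), the largest fall among the enzymes of the list. Acot2 has close paralogs beside it, and reads that align to several regions were left out of the counting, so its level is uncertain.

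In the carnitine shuttle, the outer transferase gene Cpt1a and the inner transferase gene Cpt2 moved apart. The related gene Cpt1c, outside the list, rose from 159, 149 and 144 with LNA Control to 245, 194 and 218 with LNA Malat1 (log2 change 0.53 with SE 0.09, adjusted p = 0.00091 by limma). Cpt1a (chromosome 19, positions 3322334 to 3385733), which encodes the rate-limiting outer membrane enzyme in its liver form, fell from 1189, 1174 and 1098 with LNA Control to 1058, 1003 and 1015 with LNA Malat1 (log2 change -0.17 with SE 0.05, adjusted p = 0.030 by limma). Cpt2 (chromosome 4, positions 107903981 to 107923610), which encodes the inner membrane enzyme, rose from 452, 431 and 414 to 492, 502 and 492 (log2 change 0.20 with SE 0.05, adjusted p = 0.017 by limma). In both genes the groups did not overlap, and the calls were lost in most fits that left out a library (adjusted p up to 0.12 and 0.065, limma). The log2 ratio of Cpt2 to Cpt1a within a library was -1.39, -1.44 and -1.41 with LNA Control and -1.10, -0.997 and -1.04 with LNA Malat1, a difference of 0.37 (exact permutation p = 0.1), in a ratio chosen after the values were seen. With Cpt2 higher and Cpt1a lower in every LNA Malat1 library, this p could not have been larger.

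The carrier gene Slc25a20 lay just outside the threshold. It had 202, 219 and 230 with LNA Control and 182, 188 and 193 with LNA Malat1 (log2 change -0.21 with SE 0.07, adjusted p = 0.0505 by limma). Mlycd, the gene of malonyl-CoA decarboxylase, which removes the inhibitor of CPT1, had 100, 91 and 97 against 106, 105 and 95 (95% interval of the log2 fold change -0.13 to 0.30).

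**Figure D3:**
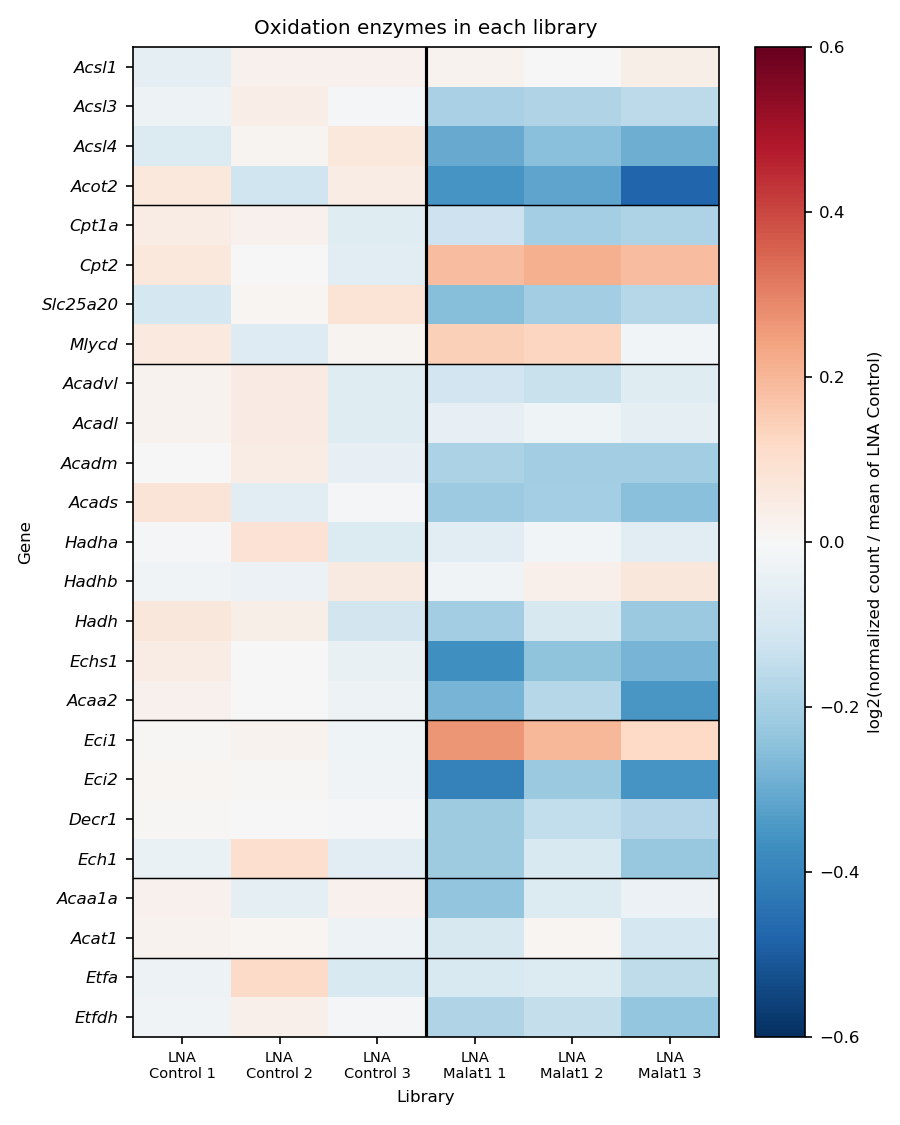
Log2 of the normalized count over the mean of LNA Control (colour, blue lower and red higher) for the activation, carnitine and oxidation enzyme genes (rows) in each library (columns). Cpt2 and Eci1 are red in all 3 LNA Malat1 libraries and Acsl4, Acot2, Echs1, Acaa2 and Eci2 are blue in all 3, while Acadl, Hadha and Hadhb are near white. Etfb is left out because of its low counts.

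The 9 genes of the mitochondrial spiral split into 4 that fell and 5 that did not pass the test. Acadm (chromosome 3, positions 153922357 to 153944632) and Acads (chromosome 5, positions 115110299 to 115119346) encode the dehydrogenases for medium and short chains. Acadm fell from 554, 572 and 536 with LNA Control to 485, 479 and 479 with LNA Malat1 (log2 change -0.20 with SE 0.05, adjusted p = 0.011 by limma). Acads fell from 262, 237 and 247 to 214, 216 and 209 (log2 change -0.22 with SE 0.07, adjusted p = 0.025 by limma). Both were below LNA Control in all 3 libraries, and of the 6 fits that left out a library Acadm passed in 5 and Acads in 2.

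Echs1 (chromosome 7, positions 140105710 to 140116476), the gene of the short-chain enoyl-CoA hydratase, fell from 378, 366 and 355 to 284, 310 and 302 (log2 change -0.29 with SE 0.06, adjusted p = 0.0030 by limma). Acaa2 (chromosome 18, positions 74779197 to 74806208), the gene of the mitochondrial 3-ketoacyl-CoA thiolase, fell from 478, 470 and 459 to 386, 416 and 368 (log2 change -0.27 with SE 0.06, adjusted p = 0.0050 by limma). These were the most stable falls of the spiral. Hadh, the gene of the medium and short chain hydroxyacyl-CoA dehydrogenase, had 525, 514 and 464 against 433, 468 and 429 and lay just outside the threshold (limma adjusted p = 0.054).

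The remaining genes of the spiral act on long chains, and none of them passed the test. Acadl, the gene of the long-chain dehydrogenase, had 740, 755 and 694 with LNA Control and 706, 716 and 704 with LNA Malat1 (95% interval of the log2 fold change -0.15 to 0.07). Hadha and Hadhb encode the α and β subunits of the trifunctional protein, which carries out the last steps on long chains. Hadha had 1117, 1191 and 1061 against 1075, 1109 and 1073 (interval -0.17 to 0.07), and Hadhb had 189, 187 and 199 against 189, 196 and 201 (interval -0.12 to 0.18). Acadvl, the gene of the very long-chain dehydrogenase, had 248, 253 and 232 against 226, 223 and 232 (interval -0.25 to 0.04), and 42.9% of its exonic bases lie under Dvl2 on the opposite strand. In all 4 genes the groups overlapped. Their intervals overlap that of Acadm, and no difference between long and shorter chain genes as groups was tested.

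The dehydrogenase genes for long and medium chains were compared by their ratio. The log2 ratio of Acadl to Acadm within a library was 0.42, 0.40 and 0.37 with LNA Control and 0.54, 0.58 and 0.55 with LNA Malat1. The ratio was higher by 0.16 in LNA Malat1 without overlap, and the spread within a group was about 0.02 (exact permutation p = 0.1, the smallest possible).

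The auxiliary enzymes that prepare double bonds for the spiral held a pair that moved in opposite directions. Eci2 (chromosome 13, positions 34977748 to 35027096) and Eci1 (chromosome 17, positions 24426641 to 24439348) both encode enoyl-CoA isomerases, of which ECI1 is mitochondrial and ECI2 is found in peroxisomes as well. Eci2 fell from 290, 289 and 283 with LNA Control to 217, 246 and 225 with LNA Malat1 (log2 change -0.33 with SE 0.07, adjusted p = 0.0030 by limma). Eci1 rose from 224, 226 and 219 to 268, 256 and 242 (log2 change 0.19 with SE 0.07, adjusted p = 0.043 by limma), a call that held in 1 of the 6 fits that left out a library.

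The ratio of the isomerase genes was compared within the libraries. Eci1 counts were 0.772, 0.782 and 0.774 times those of Eci2 in LNA Control and 1.24, 1.04 and 1.08 times in LNA Malat1 (log2 difference 0.52, exact permutation p = 0.1). This pair was also chosen after its values were seen, and its p was fixed in advance, as Eci1 was higher and Eci2 lower in every LNA Malat1 library. Decr1, the gene of the mitochondrial dienoyl-CoA reductase, fell from 453, 450 and 448 to 388, 406 and 399 (log2 change -0.18 with SE 0.05, adjusted p = 0.021 by limma) and passed in 3 of the 6 such fits. Ech1, the gene of a dienoyl-CoA isomerase, had 139, 153 and 136 against 123, 134 and 122 (limma adjusted p = 0.16).

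Of the electron transfer genes, which pass electrons from the acyl-CoA dehydrogenases to ubiquinone, Etfdh (chromosome 3, positions 79603788 to 79629500) fell from 627, 649 and 632 with LNA Control to 561, 576 and 542 with LNA Malat1 (log2 change -0.18 with SE 0.05, adjusted p = 0.017 by limma) and passed in 3 of the 6 fits that left out a library. Etfa had 318, 351 and 304 against 304, 306 and 292 (limma adjusted p = 0.25). Etfb was listed at only 11, 20 and 14 against 15, 23 and 9, and 53.0% of its exonic bases in GENCODE M21 lie under Gm45233 on the same strand, where reads on both genes were left out by the authors. The thiolase genes Acaa1a, of peroxisomes, and Acat1, of acetoacetyl-CoA, had log2 fold changes of -0.12 and -0.06 (limma adjusted p = 0.43 and 0.40).

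The tested fuel selection and uncoupling genes of the list, Pdk4 and Ucp2, did not share the downward direction, and neither passed the adjusted p. Of the Pdk genes outside the list, Pdk1 fell from 714, 615 and 687 with LNA Control to 551, 546 and 551 with LNA Malat1 (log2 change -0.29, adjusted p = 0.0036 by limma). Pdk2 and Pdk3 did not pass (log2 changes 0.15 and -0.11, limma adjusted p = 0.31 and 0.12). Pdk4, the gene of the kinase that shuts pyruvate dehydrogenase when fatty acids are burned, had 517, 414 and 396 with LNA Control and 492, 427 and 467 with LNA Malat1, and LNA Control replicate 1 was the highest of the 6 libraries (limma adjusted p = 0.60). Ucp2, the gene of a mitochondrial carrier of the uncoupling family, had 185, 166 and 160 against 197, 188 and 219, with no overlap, and lay just outside the threshold (log2 change 0.24 with SE 0.08, adjusted p = 0.0501 by limma). Ucp3, the muscle member, was listed at 0 throughout LNA Control and at 4, 4 and 1 with LNA Malat1.

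Levels were compared between genes per kilobase of exons (GENCODE M21, all exons of a gene joined), where isoform choice can shift the order. Acadl stood highest in LNA Control with 363.9 normalized counts per kilobase, followed by Acaa2 with 309.4, Ppargc1a with 231.4, Acat1 with 198.4 and Acsl4 with 187.4. Among the PPAR genes Ppard was at 53.0 per kilobase, Ppara at 23.9 and Pparg at 0.903. In LNA Malat1 Ppard was at 64.3 and Ppara at 11.9 per kilobase. Esrrg at 91.6 and Esrra at 85.1 were close in LNA Control, and in LNA Malat1 they were at 79.3 and 65.8. The lowest of the tested genes were Fabp4 at 6.01, Etfb at 12.9 and Cd36 at 17.5 per kilobase in LNA Control.

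**Figure D4:**
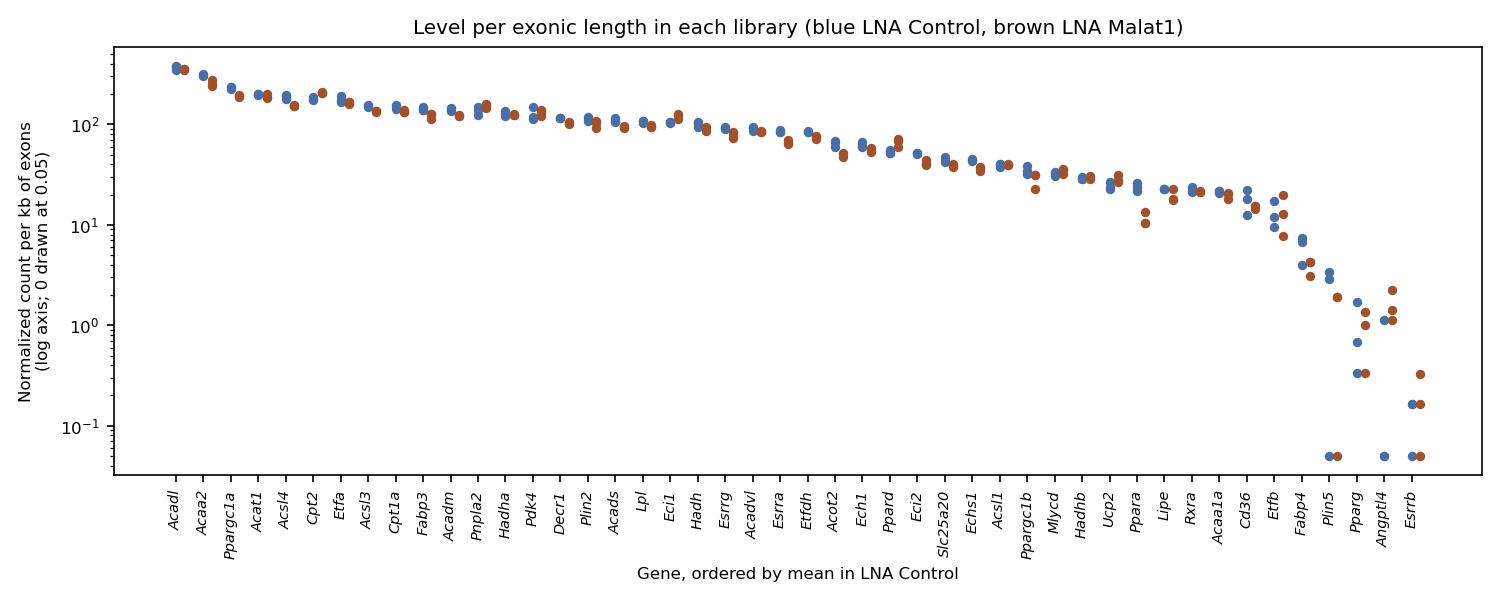
Normalized count per kilobase of exons (log axis, values of 0 drawn at its foot) for each gene and library, LNA Control in blue and LNA Malat1 in brown, ordered by the mean in LNA Control. Mean levels run from 363.9 for Acadl to under 1 for Pparg, Angptl4 and Esrrb. Ucp3, listed at 0 in LNA Control, is left out.

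Other genes of these pathways, 71 in a separate list with 66 in the table and 61 tested, showed 18 lower and 7 higher at the adjusted p, against 14.0% and 14.3% of all genes tested and 19.7% and 12.2% of those with a mean of at least 50, with a median log2 fold change of -0.09. By list, 7 of 18 partners and sensors of PPAR and PGC-1, 4 of 6 genes of lipolysis and droplets, 3 of 16 mitochondrial acyl-CoA enzymes, 2 of 8 transport and activation genes and 2 of 13 peroxisomal genes fell, and 0, 1, 3, 1 and 2 of these rose. With the 1.5-fold minimum, Acsl6, Nrf1 and G0s2 were called lower and Acaa1b, Plin4, Acad8 and Acad12 higher, 3 and 4 of 61, against 2.92% lower and 8.0% higher among all genes tested. Among the partners of PGC-1, Nrf1, the gene of nuclear respiratory factor 1, an activator of mitochondrial biogenesis genes, fell from 516, 546 and 506 with LNA Control to 224, 254 and 249 with LNA Malat1 (log2 change -1.11 with SE 0.06, adjusted p = 2.6e-07 by limma). Gabpa, the gene of the DNA-binding subunit of GABP, fell from 1252, 1320 and 1279 to 919, 989 and 901 (log2 change -0.46 with SE 0.05, adjusted p = 6.1e-05 by limma), and the coactivator gene Ncoa2 from 587, 560 and 601 to 366, 383 and 436 (log2 change -0.56, adjusted p = 6.6e-05 by limma). Of the genes that hold their elements in the stretches shown above, Ppara and Etfdh fell, Cpt2 rose and Slc25a20 did not pass the test. Whether the falls of Nrf1 and Gabpa have a part in these changes was not tested. Tfam, the gene of the mitochondrial transcription factor, had 762, 788 and 723 against 760, 751 and 720.

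In lipolysis, the inhibitor and the activator of adipose triglyceride lipase both fell. G0s2, the gene of the inhibitor, had 150, 151 and 148 with LNA Control and 84, 80 and 66 with LNA Malat1 (log2 change -0.96 with SE 0.11, adjusted p = 3.5e-05 by limma). Abhd5, the gene of the activator, had 364, 345 and 357 against 269, 290 and 267 (log2 change -0.37 with SE 0.06, adjusted p = 0.00071 by limma). Plin4, the gene of a droplet coat protein, rose from low counts of 7, 5 and 9 to 23, 23 and 13 (log2 change 1.36, adjusted p = 0.0088 by limma), and lost the call in 2 of the 6 fits that left out a library. Acsl6, a further acyl-CoA synthetase gene, fell from 101, 86 and 97 to 34, 49 and 42 (log2 change -1.18 with SE 0.15, adjusted p = 0.00011 by limma).

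Among the genes of peroxisomal oxidation, Acox3, the gene of an oxidase for branched chains, rose from 189, 200 and 172 to 247, 273 and 255 (log2 change 0.47, adjusted p = 0.00067 by limma). The thiolase gene Acaa1b rose from 12, 10 and 16 to 28, 30 and 30 (log2 change 1.17, adjusted p = 0.0031 by limma). Acaa1b is a close paralog of Acaa1a, so reads that align to both were not counted. Acad8, the gene of a dehydrogenase of valine breakdown, rose from 111, 105 and 114 to 178, 178 and 161 (log2 change 0.64, adjusted p = 0.00013 by limma). Acad12, the gene of a related dehydrogenase, had 33, 22 and 34 against 44, 47 and 47 and rose by the same log2 change of 0.64 (adjusted p = 0.026 by limma), a call kept in 2 of the 6 such fits. In ketone use, Oxct1 fell from 1782, 1814 and 1627 to 1438, 1483 and 1390 and Bdh1 from 168, 187 and 190 to 121, 140 and 113 (log2 fold changes -0.28 and -0.54, limma adjusted p = 0.0036 and 0.0011).

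**Figure D5:**
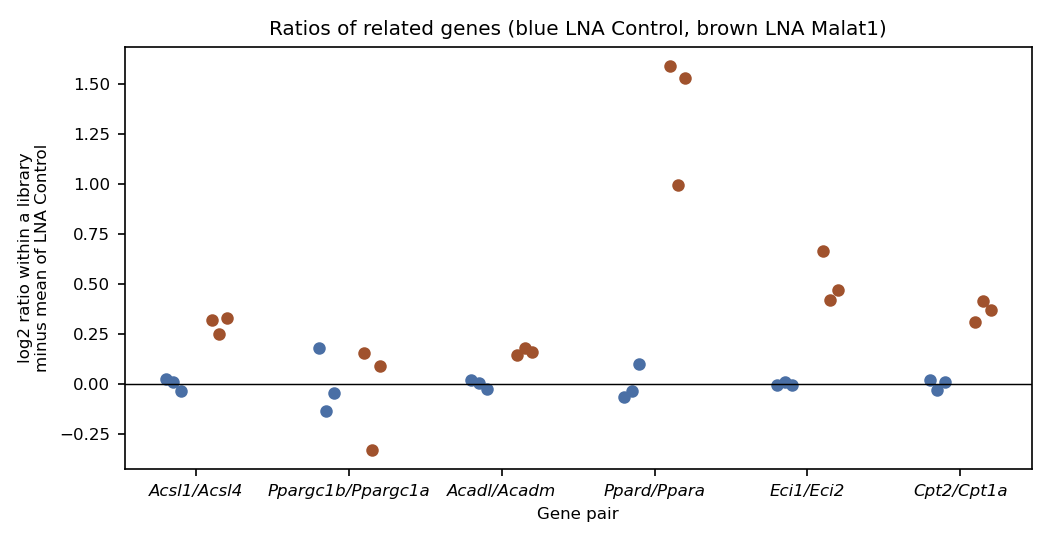
Log2 ratio of paired genes within each library minus the mean of LNA Control (vertical axis) for 6 gene pairs, with 3 libraries per group. The LNA Malat1 libraries lie above LNA Control in every pair shown except Ppargc1b to Ppargc1a, where the groups overlap. The difference between the group means was largest for Ppard to Ppara, at 1.37.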

How the data were processed

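RNA of 6 HL-1 libraries was sequenced on total RNA with the SMARTer Stranded kit as single-end reads. Per the paper's methods and the submitters' processing notes, the authors used Trimmomatic 0.39 for trimming, STAR 2.7.7a for alignment to mm10, featureCounts 1.6.5 for counting over exons without reads that hit more than one gene or region, and DESeq2 1.30.0. What the authors deposited is a score and not raw counts, namely normalized counts with a single scaling per library, rounded to whole numbers, so limma and no count model was used. Whether the counting used the strand is not given in the sources used here.

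Genes with a mean of at least 5 were tested with limma 3.58.1 (R 4.3.3) on log2(normalized count + 1), with two-sided p-values, a variance trend over the level, and adjustment by Benjamini and Hochberg over all genes tested. Fold changes are on this scale, which understates those of low genes. Calls used an adjusted p of at most 0.05, alone or with a 1.5-fold change. Reads per library were recovered from the steps that rounding leaves in the values, which covers counting error only. Ratios were compared by exact permutation tests with scipy 1.17.1.

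The members and lists were chosen with earlier results of these data known. The genes named are Malat1, all members, and of the other pathway genes those called, with values for up to 8 with the largest changes. Outside this rule, these were chosen after their values were seen: Tfam, Acox3, Abhd5, Gabpa, Ncoa2, Oxct1, Bdh1, Cpt1c, Pdk1, Pdk2 and Pdk3. Alternatives were the replicate number as a block, other pseudocounts, scalings and filters, other fold change rules, each library left out, and LNA Malat1 replicates 1 and 3 as 1 sample. The counts without a fold change minimum under each setting and 3 of the 6 ratios were added after seeing the data.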

Additional observations from a re-analysis of the deposited data

How the results depend on the processing

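Ppara was the only member called at 1.5-fold, and the number called lower stayed at 1 in all settings but these. It was 2 under quantile normalization and between 1 and 2 with each library left out (2, with Fabp4, without LNA Control replicate 1), 0 when a 1.5-fold change was itself tested, and 16 without the fold change minimum. As reported, 0 members were called higher, against 1 without a filter on low values (Ucp3) and 3 without the fold change minimum. The counts at the adjusted p alone depended more on single libraries. They were not set against the share of all genes under the same setting. Against 16 lower members as reported, 9 (Fabp4 among them) were lower under quantile normalization, 10 with LNA Malat1 replicates 1 and 3 as 1 sample, and between 9 and 17 with each library left out (10 without LNA Control replicate 2 or LNA Malat1 replicate 3, 9 without LNA Malat1 replicate 1). Against 3 higher members, 5 were higher under quantile normalization and with library totals set equal, and between 1 and 5 with each library left out (5 without LNA Control replicate 1, and 1 without LNA Control replicate 2, LNA Malat1 replicate 1 or LNA Malat1 replicate 2). Against 4 other pathway genes called higher, 1 was with a mean of at least 50, 7 without the fold change minimum, 2 with a minimum of 2-fold and 0 against a 1.5-fold change, and between 2 and 5 with each library left out (2 without LNA Malat1 replicate 1). Against 3 called lower, 18 were lower without the minimum. Leaving out each library moved the log2 difference of the Ppargc1b to Ppargc1a ratio over -0.12 to 0.12. Among the members the direction turned in Acadl (0.017 under quantile normalization), Etfb (-0.0096 with median-of-ratios scaling and -0.35 under quantile normalization) and, with each library left out, in Acsl1 (-0.0081 to 0.033, negative without LNA Control replicate 1), Pdk4 (-0.0045 to 0.19, negative without LNA Control replicate 3) and Etfb (-0.30 to 0.33). The cause was not tested.

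Same-numbered libraries had weakly correlated deviations from their group means (0.09, 0.18 and 0.08 over 10490 genes). These were higher than the correlations of libraries with unlike numbers, which ran from -0.19 to 0.05. Deviations within a group cancel when summed, so higher values at like numbers bring lower ones at unlike numbers. This contrast is therefore partly built in. The paper names no pairing of the libraries, so the main fit did not pair them, and whether the numbers mark pairs was not settled. With the replicate block 20 members were lower and 3 higher at the adjusted p, and 1 was called lower at 1.5-fold. At the low counts of Etfb, 9 to 23 per library, the 95% interval of its log2 fold change was -0.74 to 0.76, which holds the fitted change of every other tested member but Ppara.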
